A study of Mus musculus with 6 samples.

Results

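The interferon-stimulated genes described here are 40 genes that respond to interferons, picked by their gene symbols from the 48440 genes listed for each library of mouse small intestinal adenomas. Of these, 13 were taken as type I style genes (the Ifit, Oas, Oasl and Mx families and Isg15) and 11 as gamma style genes (the Gbp and Irgm families, Igtp, Iigp1, Psmb8 and Psmb9). The other 16 are transcription factors, nucleic acid sensors and further effectors or regulators. A mean of at least 1 FPKM (fragments per kilobase of transcript, relative to the depth of the library) over the 6 libraries, the filter for testing, was reached by 36 of the 40 members and by 14240 genes in all. The members below it were Oas2, Mx1, Mx2 and Gbp6.

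Type I interferons bind a receptor made of Ifnar1 and Ifnar2, and type III interferons, to which intestinal epithelium responds, bind Ifnlr1 with Il10rb. Both lead to a complex that holds Stat2 and Irf9 and binds interferon-stimulated response elements. Interferon gamma, made mainly by T cells and NK cells, binds Ifngr1 with Ifngr2, and its signal acts through gamma-activated sites and induces Irf1. The target genes of these routes overlap widely, so the names type I style and gamma style mark families that are typical of each and are not exclusive.

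All 6 libraries came from adenoma polyps of adult ApcMin mice on a C57BL/6 background, given as older than 42 days, and all mice carry 1 mutant Apc allele, which makes them form intestinal tumours. In the 3 ApcMin PCdel libraries (labelled ApcMin.PCdel; QC3, QC8 and QC10) the mice also carried Defa4-Cre, in which Cre is expressed from the Paneth cell gene Defa4, and the Rosa26 iDTA/WT allele, so that Cre switched on diphtheria toxin A and killed cells of the Paneth cell (PC) lineage. The 3 ApcMin libraries (QC4, QC5 and QC6) are the controls, which by the study's methods were littermates with Rosa26 iDTA/WT and no Cre. The Cre allele was made in 129/svJ embryonic stem cells, and no library came from mice with Cre and without the toxin. Each library is a separate sample in the labels, and p-values measure only the spread between these samples.

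Aligned sequence came to between 5.407 and 5.876 gigabases per library. The 6 epithelial markers summed to between 4260 and 6154 FPKM, and each of the 6 was above 0 in every library. The Paneth cell genes Defa21, Defa22 and Lyz1 were lower in every PCdel library than in every ApcMin library, by 2.98, 2.77 and 0.95 on the log2 scale. The other Paneth cell genes listed, Mmp7, Ang4 and Itln1, overlapped. Their means on that scale were also lower in PCdel, with differences of -0.22, -0.35 and -0.62, and Ang4 ranged from 62.3 to 1173 FPKM over the libraries. The paper reports lower Defa and Lyz1 mRNA and less lysozyme staining in small intestinal adenomas of PCdel mice. The sum of the 6 Paneth cell genes listed here overlapped, at 1952 to 3303 FPKM in PCdel and 3101 to 5008 in ApcMin libraries. The 4 Y-linked genes summed to 37.9 FPKM in ApcMin library QC6 and 41.9 FPKM in PCdel library QC3, and to 0.254, 1.52, 0.00380 and 0.0700 FPKM in QC4, QC5, QC8 and QC10. In whole tumours, fewer cells of a type and less RNA per cell cannot be told apart.

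The gamma style genes had the higher means in PCdel adenomas, whereas the type I style genes had means on both sides, and no single member passed the test after adjustment. On the scale of log2(FPKM + 1), on which means are compared between genotypes throughout, 11 of the 11 gamma style members had the higher mean in PCdel (10 with quantile normalization or without ApcMin library QC4), and the median of their differences, PCdel minus ApcMin, was 0.47. Of the 13 type I style members, 8 had the higher mean in PCdel (between 5 and 11 with 1 library left out), with a median difference of 0.07 (-0.04 without QC4 and -0.02 without QC10). Of the other 16 members 10 did, with a median of 0.05. The median over all 14240 genes tested was 0.04, and 63.1% of them had the higher mean in PCdel. Over all 40 members the median was 0.15, with 29 higher and 11 lower.

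In limma, with Benjamini-Hochberg adjustment over all genes tested and a threshold of 0.05, 0 of the 36 members passed, against 2 (0.0140%) of all genes, and the adjusted p of every member rounded to 1.0. At an unadjusted p under 0.05, limma called 9 of the 36 members, all higher in PCdel, where 3.38% of all genes tested were called, 2.70% higher and 0.681% lower. The 9 were the gamma style genes Gbp2, Gbp4, Gbp7, Igtp, Iigp1, Irgm1, Irgm2 and Psmb8, and the sensor Zbp1. Gbp4 reached the filter only through its PCdel values, so its call supports nothing, and without it 8 members were called, 7 of them of the gamma style. The gamma style count of 8 was 5 without ApcMin library QC4 and 5 without PCdel library QC3, and the type I style count of 0 was 2 without QC3. In 8 of the 40 members every PCdel library was above every ApcMin library, and in 0 below, where 7.54% of all genes tested did not overlap, 6.00% upwards and 1.54% downwards. These were 6 gamma style genes (Gbp2, Gbp4, Gbp7, Iigp1, Irgm1 and Irgm2), Zbp1 and Stat2, and Gbp4 is again to be set aside, which leaves 5 of the gamma style. For each of them the exact permutation test over the 6 libraries (two-sided) gave p = 0.1, which is the smallest that 3 against 3 can give. The exact p in what follows is from this test.

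**Figure D1:**
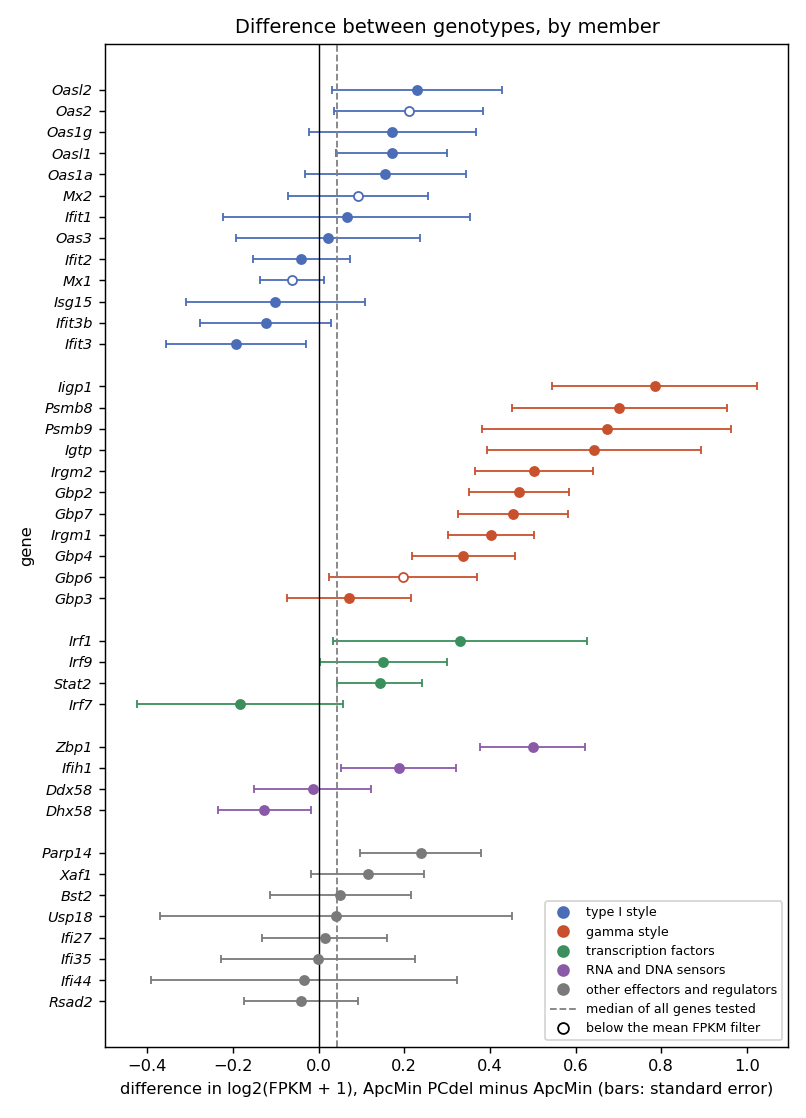
Difference in log2(FPKM + 1), ApcMin PCdel minus ApcMin, of each of the 40 members (points) with its standard error (bars), grouped by role; open points are the 4 members below the filter and the dashed line is the median of all genes tested, 0.04. All 11 gamma style points lie right of 0, from 0.07 to 0.78, whereas the 13 type I style points lie on both sides, from -0.19 to 0.23.

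The promoters of both styles hold the sequence cores named above. In RefSeq promoters of the GRCm38.p6 build, 250 bases before to 50 after each start, 29 of the 40 members had an entry. Those without one were Oas2, Usp18, Gbp4, Gbp6, Parp14, Zbp1, Iigp1, Ifi27, Dhx58, Mx1 and Mx2. The core of the interferon-stimulated response element was searched as GAAANNGAA and that of the gamma-activated site as TTCNNNGAA, on both strands. The response element core stood in 19 of 29 members (65.5%) and in 9.76% of all 27025 genes in the table, and the gamma-activated core in 9 of 29 (31.03%) and in 9.55% of all genes. By style, the response element core was found in 7 of 10 type I style and 6 of 8 gamma style promoters, and the gamma-activated core in 2 of 10 and 4 of 8. A match describes letters only and is not a shown binding site.

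The stretches that hold these cores are given for Ifit1, Isg15, Oas1a, 6 gamma style genes and Irf1, since they show the cores alone and together in both styles. Letters in capitals are the cores on either strand, and a capital run longer than a core is made of overlapping copies. Each is written from 5′ to 3′ on the gene's strand, upstream of the RefSeq start, although in the GENCODE annotation most of the Gbp2 stretch and the Irgm1 and Psmb8 stretches lie in a first exon of a transcript. The places in GRCm38.p6 are chr19:34640770-34640823 (plus strand) for Ifit1, chr4:156200866-156200906 (minus strand) for Isg15, chr5:120907526-120907633 (minus strand) for Oas1a, chr3:142620595-142620623 (plus strand) for Gbp2 and chr3:142530220-142530302 (plus strand) for Gbp7. Those of Irgm1 and Psmb8 are chr11:48871426-48871460 (minus strand) and chr17:34198088-34198116 (plus strand). Those of Igtp, Irgm2 and Irf1 are chr11:58199501-58199540, chr11:58214892-58214931 and chr11:53769914-53769942, all on the plus strand.
Ifit1: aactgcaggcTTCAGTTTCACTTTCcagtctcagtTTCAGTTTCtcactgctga
Isg15: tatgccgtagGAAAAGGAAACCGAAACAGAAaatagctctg
Oas1a: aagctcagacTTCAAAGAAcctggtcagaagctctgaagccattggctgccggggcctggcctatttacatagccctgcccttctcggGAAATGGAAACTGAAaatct
Gbp2: ctcttttagtTTCACTTTCactgtcttaa
Gbp7: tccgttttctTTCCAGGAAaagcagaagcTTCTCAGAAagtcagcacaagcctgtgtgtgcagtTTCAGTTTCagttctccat
Igtp: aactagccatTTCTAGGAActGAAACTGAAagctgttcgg
Irgm2: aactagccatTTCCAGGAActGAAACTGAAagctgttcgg
Irgm1: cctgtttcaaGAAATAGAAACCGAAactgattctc
Psmb8: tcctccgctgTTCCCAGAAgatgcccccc
Irf1: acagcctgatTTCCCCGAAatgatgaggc
Ifit1 and Isg15 each hold 3 response element cores and no gamma-activated core in the 300 bases. Oas1a, Gbp7, Igtp and Irgm2 hold both kinds, Gbp2 and Irgm1 hold response element cores alone, and Psmb8 and Irf1 a gamma-activated core alone. The 40 bases of Igtp and Irgm2, which are neighbours on chromosome 11, were identical at 39 positions.

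The guanylate-binding proteins, large GTPases that gather on microbe-containing vacuoles, lie in clusters on chromosomes 3 and 5. Gbp2 (chromosome 3, 142620602 to 142638008) was at 4.63, 4.93 and 5.90 FPKM in the ApcMin libraries QC4, QC5 and QC6 and at 8.12, 7.34 and 7.01 FPKM in the PCdel libraries QC3, QC8 and QC10. The PCdel libraries lay close together and all above the controls, with a difference of 0.47 on the log2(FPKM + 1) scale (SE 0.12, exact permutation p = 0.1, limma adjusted p = 1.0). Gbp7, in the same cluster on chromosome 3, was at 1.55, 1.47 and 2.06 FPKM in ApcMin and at 2.68, 2.42 and 2.94 FPKM in PCdel libraries, a difference of 0.45 (SE 0.13, exact permutation p = 0.1). Again no PCdel library reached down to the controls.

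Gbp4, in the cluster on chromosome 5, was at 0.820, 1.08 and 0.954 FPKM in ApcMin and 1.65, 1.49 and 1.26 FPKM in PCdel libraries, also without overlap (difference 0.34, SE 0.12, exact permutation p = 0.1). Its mean in ApcMin was 0.951 FPKM, below the filter, and at this level the added 1 shrinks the difference, which was 0.58 with 0.1 added instead. Gbp3, between Gbp7 and Gbp2 on chromosome 3, did not share the separation, at 2.44, 3.45 and 3.49 FPKM in ApcMin and 3.42, 3.63 and 2.89 FPKM in PCdel libraries (difference 0.07, SE 0.14, exact permutation p = 0.7). Gbp6 was below the filter, at 0.385 to 0.711 FPKM in ApcMin and 0.533 to 1.27 FPKM in PCdel libraries, and 67.8% of its 31-base stretches also occur in the gene model Gm43302, so its reads cannot be placed with certainty. The sum of Gbp6 and Gm43302 was 1.05, 0.853 and 1.11 FPKM in ApcMin and 1.26, 1.24 and 1.99 FPKM in PCdel libraries. These weak sums did not overlap, but they leave out Gbp10, of which 80.8% of the 31-base stretches occur in Gbp6.

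The immunity-related GTPases, which act on the vacuoles of intracellular parasites and bacteria, were higher in PCdel for 4 of 4 members, with groups apart in 3. Irgm1 (chromosome 11, 48861968 to 48871683), a regulator of the other members of this family, was at 20.5, 21.9 and 20.3 FPKM in ApcMin and 26.5, 26.9 and 30.6 FPKM in PCdel libraries. Its groups were narrow and apart, with means of 20.9 ± 0.879 (SD, n = 3) and 28.0 ± 2.27 FPKM (SD, n = 3) and a difference of 0.40 (SE 0.10, exact permutation p = 0.1). Over the 6 fits that each drop 1 library the difference was between 0.34 and 0.44. Irgm2 (chromosome 11, 58199618 to 58222782), also a regulator, was at 8.07, 7.75 and 8.75 FPKM in ApcMin and 11.8, 10.2 and 14.4 FPKM in PCdel libraries, likewise apart (difference 0.50, SE 0.14, exact permutation p = 0.1).

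Igtp (chromosome 11, 58199556 to 58207591), the third of these regulators, was at 7.39, 10.7 and 12.1 FPKM in ApcMin and at 17.1, 11.4 and 20.7 FPKM in PCdel libraries. PCdel library QC8 lay below ApcMin library QC6, so the groups overlapped (difference 0.64, SE 0.25, exact permutation p = 0.2). Of its 31-base stretches 15.9% occur in Irgm2, and 162 exonic bases of the 2 genes coincide. The difference was 0.46 without ApcMin library QC4 and 0.47 without PCdel library QC10, and in neither fit was its unadjusted p under 0.05.

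Iigp1, an effector GTPase that coats the vacuole, had the largest difference of the 40 members. It was at 2.40, 3.11 and 3.16 FPKM in ApcMin and at 8.70, 4.28 and 4.81 FPKM in PCdel libraries, and the groups did not overlap. The mean was 2.05 times higher in PCdel, at 5.93 ± 2.42 (SD, n = 3) against 2.89 ± 0.427 FPKM (SD, n = 3), a difference of 0.78 (SE 0.24, exact permutation p = 0.1). Library QC3 carried much of it, and without QC3 the difference was 0.51.

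Psmb8 and Psmb9, inducible catalytic subunits of the immunoproteasome that shapes peptides for MHC class I, were the next largest. Psmb8 (chromosome 17, 34197721 to 34201454) was at 24.4, 31.1 and 38.2 FPKM in ApcMin and at 53.5, 36.6 and 66.5 FPKM in PCdel libraries, with QC8 below QC6 (difference 0.70, SE 0.25, exact permutation p = 0.2). Psmb9 (chromosome 17, 34181988 to 34187764) was at 9.97, 12.5 and 16.8 FPKM in ApcMin and 18.2, 15.8 and 32.0 FPKM in PCdel libraries, again with QC8 below QC6, and was not among the 9 called without adjustment (difference 0.67, SE 0.29, exact permutation p = 0.2). In both, QC4 was the lowest library and QC10 the highest. Without QC10 the difference of Psmb9 was 0.38 and that of Psmb8 was 0.51. Their exons overlap those of genes on the other strand, Gm20496 for Psmb8 and Tap1 for Psmb9, and whether the reads keep the strand is not given in the sources used here.

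**Figure D2:**
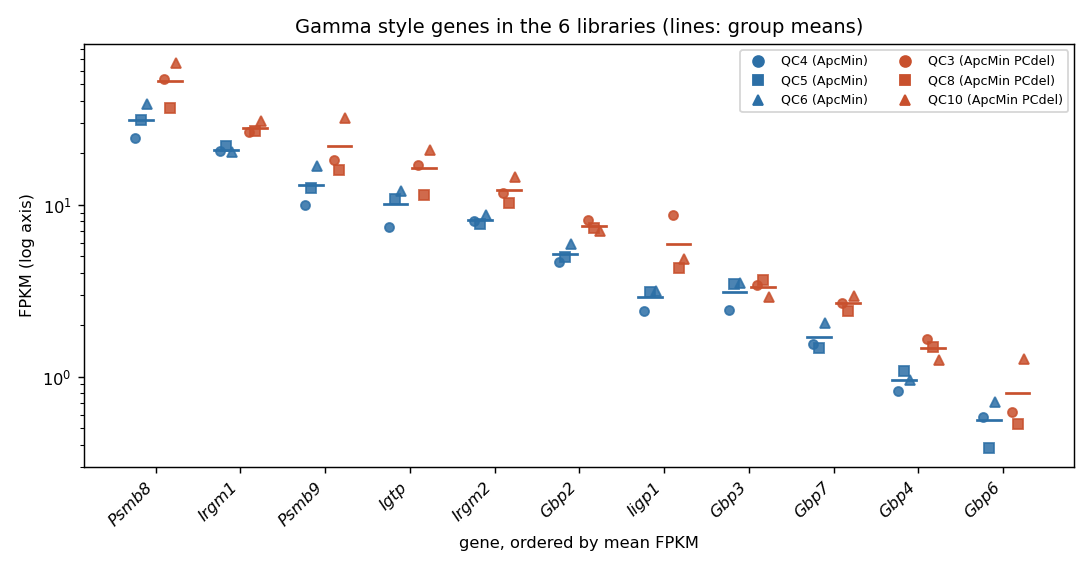
FPKM on a log axis of the 11 gamma style genes in each library (symbols; blue for ApcMin, red for ApcMin PCdel), ordered by mean FPKM, with lines at the group means. Irgm1, Irgm2, Gbp2, Iigp1, Gbp7 and Gbp4 have every red symbol above every blue one, and in Psmb8, Psmb9 and Igtp the PCdel library QC8 falls within the range of the controls.

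The type I style genes overlapped between genotypes in 13 of 13 members, and 0 of the 10 tested had an unadjusted limma p under 0.05. Highest per transcript length were Oasl1, Oasl2 and Oas1a. Oasl1, which resembles the oligoadenylate synthetases and restrains Irf7 translation, was at 25.1, 27.7 and 30.5 FPKM in ApcMin and at 30.1, 35.9 and 28.3 FPKM in PCdel libraries (difference 0.17, SE 0.13, exact permutation p = 0.3). Oasl2 was at 16.8, 21.7 and 22.3 FPKM in ApcMin and 18.1, 25.2 and 29.4 FPKM in PCdel libraries, the largest difference of the tested type I style members at 0.23 (SE 0.20, exact permutation p = 0.4).

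Oas1a and Oas1g, synthetases of the 2-5A signal that activates RNase L, ranked the 6 libraries in the same order, but they share sequence. Oas1a was at 15.7, 18.9 and 16.4 FPKM in ApcMin and 14.1, 23.1 and 20.9 FPKM in PCdel libraries, where QC3 was the lowest of the 6 and QC8 the highest. Since 68.7% of the 31-base stretches of Oas1a occur in Oas1g, the sum of the pair is the safer value, at 24.6, 31.01 and 26.7 FPKM in ApcMin and 23.0, 37.6 and 33.6 FPKM in PCdel libraries. Oas3, at 2.53 to 4.56 FPKM in ApcMin and 2.71 to 4.49 FPKM in PCdel libraries, spanned nearly the same range in both groups. Oas2 stayed below the filter, at 0.622, 1.22 and 0.657 FPKM in ApcMin and 0.875, 1.49 and 0.981 FPKM in PCdel libraries, with overlap.

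Isg15, a ubiquitin-like modifier and one of the most general interferon responses, was at 13.5, 20.8 and 22.5 FPKM in ApcMin and at 14.5, 18.3 and 19.3 FPKM in PCdel libraries. Its PCdel libraries fell inside the range of the controls, with a difference of -0.10 (SE 0.21, exact permutation p = 0.6). Ifit1, which binds RNA that lacks the cap methylation of host messages, was at 9.60, 10.7 and 13.5 FPKM in ApcMin and at 8.79, 9.51 and 19.1 FPKM in PCdel libraries. Here QC10 was the highest and the other PCdel libraries were the lowest of the 6, so the difference of 0.07 (SE 0.29, exact permutation p = 1) became -0.26 without QC10.

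Ifit3 was at 3.86, 4.80 and 4.07 FPKM in ApcMin and 2.77, 3.55 and 4.56 FPKM in PCdel libraries, and had the lowest difference of the 40 members at -0.19 (SE 0.16, exact permutation p = 0.4). With Ifit3b, in which 54.1% of the 31-base stretches occur in Ifit3, it summed to 6.03, 6.81 and 5.65 FPKM in ApcMin and 4.02, 5.35 and 6.59 FPKM in PCdel libraries, and again QC3 was lowest. Ifit2 lay between 1.97 and 2.53 FPKM in all libraries. The antiviral GTPases Mx1 and Mx2 were at 0.682 to 0.927 and 0.232 to 0.824 FPKM, below the filter, and many laboratory strains of the C57BL/6 type carry a defective Mx1.

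**Figure D3:**
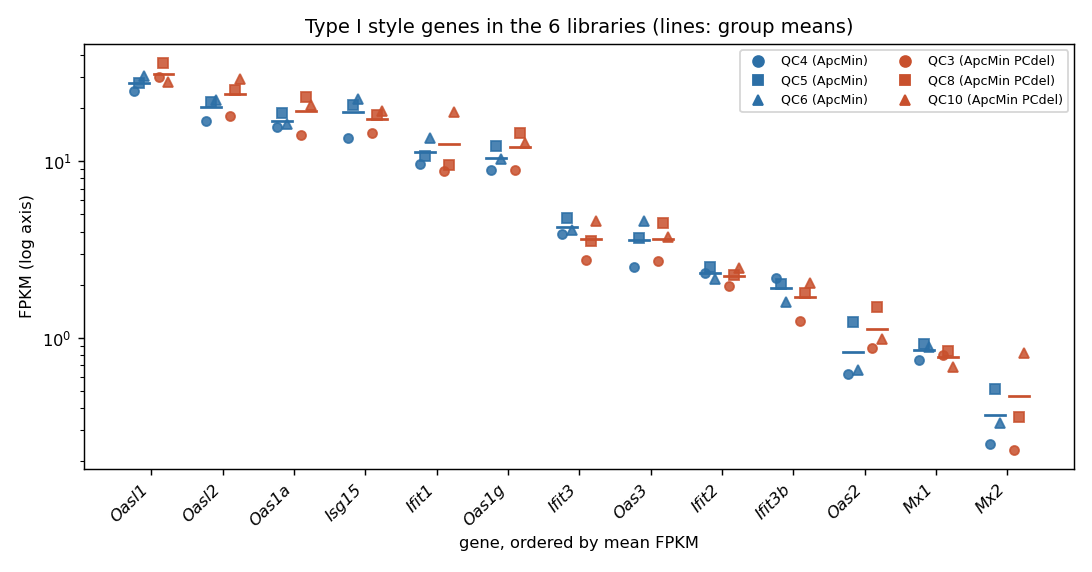
FPKM on a log axis of the 13 type I style genes in each library (symbols; blue for ApcMin, red for ApcMin PCdel), ordered by mean FPKM, with lines at the group means. In every gene the red and blue symbols overlap, and the PCdel library QC3 is the lowest of the 6 in 7 genes.

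The libraries ranked differently for the styles. The level of a list in a library was taken as the median over its genes of log2(FPKM + 1) minus the gene's mean over the 6 libraries. For the gamma style it was -0.30, -0.28 and -0.06 in the ApcMin libraries QC4, QC5 and QC6 and 0.23, 0.05 and 0.33 in the PCdel libraries QC3, QC8 and QC10. These levels did not overlap. For the type I style it was -0.22, 0.10 and 0.03 in ApcMin and -0.29, 0.03 and 0.12 in PCdel libraries, where QC3 was the lowest of all. The gamma style level minus the type I style level was thus below 0 in 3 of 3 ApcMin libraries, at -0.08, -0.38 and -0.08, and above 0 in 3 of 3 PCdel libraries, at 0.52, 0.02 and 0.21. The values of QC8, QC4 and QC6 lie close to 0. The place of 0 is itself set by centring each gene on these 6 libraries, so the signs are not independent of each other. As the members were chosen with earlier results known, this contrast was not tested.

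As summed FPKM, the 11 gamma style genes came to 82.8, 98.4 and 112.4 in ApcMin and to 152.2, 120.6 and 184.4 in PCdel libraries. The 13 type I style genes came to 102.2, 127.6 and 129.8 in ApcMin and to 105.0, 141.3 and 145.1 in PCdel libraries. By single genes, the highest gamma style value stood in a PCdel library for 11 of 11 members (QC10 for 7, QC3 for 3 and QC8 for 1), and the lowest in an ApcMin library for 11 of 11. Of the 13 type I style members, QC3 was lowest for 7 and QC4 for 5. Thus QC3 was high for the gamma style and low for the type I style. Over all 40 members, QC10 was the highest library for 16 and QC4 the lowest for 16. How often each library is the highest or lowest over all genes was not taken, so these counts have no background.

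**Figure D4:**
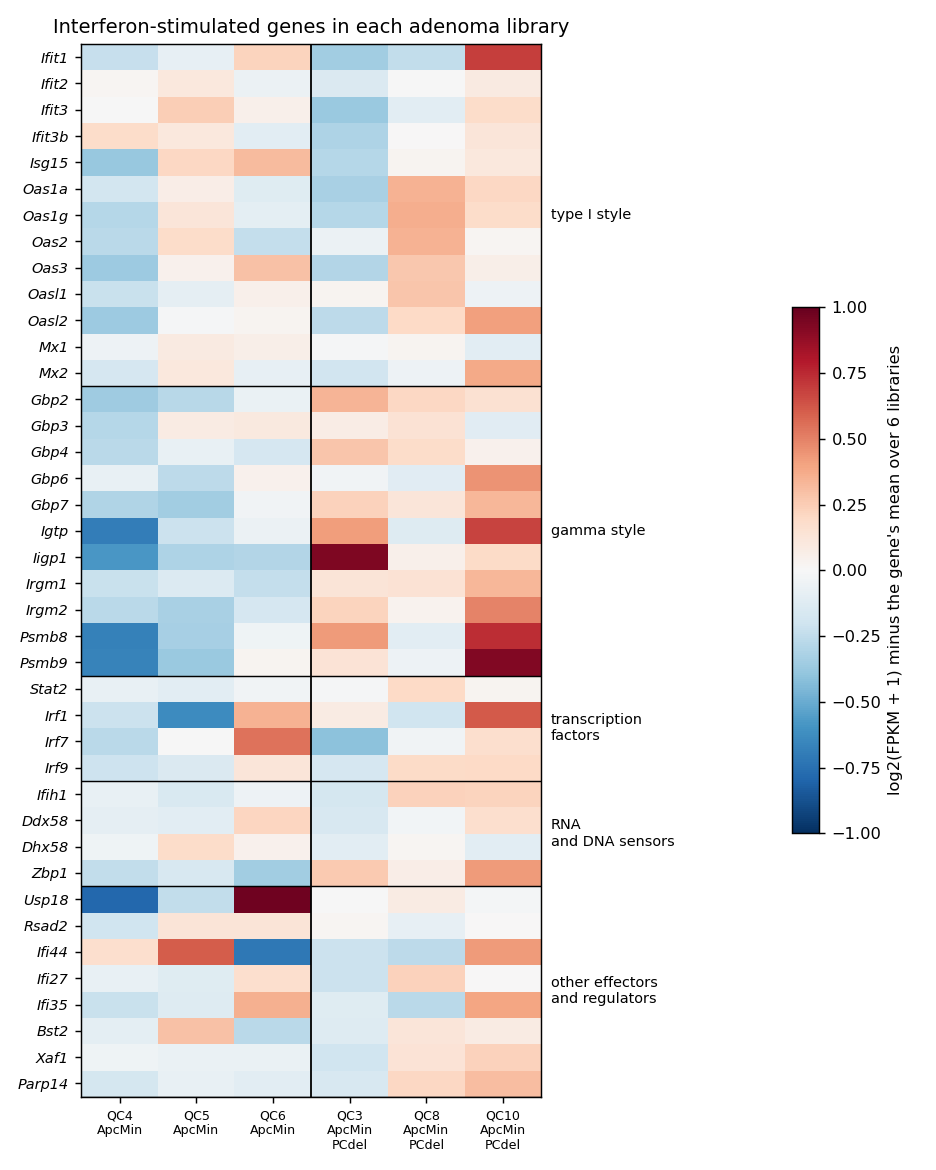
Each of the 40 members (rows) in each of the 6 libraries (columns) as log2(FPKM + 1) minus the gene's mean over the libraries, red above and blue below it. The gamma style rows are mainly blue in ApcMin and red in ApcMin PCdel columns, and the type I style rows are mainly blue in the ApcMin library QC4 and the PCdel library QC3.

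Among the transcription factors, Irf1, the factor that gamma signalling induces and that drives many gamma style genes, was the highest member per transcript length. It was at 47.1, 35.1 and 69.7 FPKM in ApcMin and at 58.1, 47.6 and 84.1 FPKM in PCdel libraries, with wide overlap (difference 0.33, SE 0.30, exact permutation p = 0.4). The difference was 0.10 without ApcMin library QC5 and 0.11 without PCdel library QC10. Stat2, part of the type I complex, was at 7.67, 7.46 and 7.92 FPKM in ApcMin and 8.04, 9.49 and 8.27 FPKM in PCdel libraries. The groups were apart, but QC3 and QC6 differed by little (difference 0.14, SE 0.10, exact permutation p = 0.1).

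Irf9, the DNA-binding part of the type I complex, was at 13.5, 14.2 and 17.3 FPKM in ApcMin and 13.9, 18.2 and 18.3 FPKM in PCdel libraries, with overlap and a difference of 0.15 (SE 0.15). Irf7, which amplifies type I interferon production, was at 24.7, 29.9 and 44.2 FPKM in ApcMin and at 22.3, 29.3 and 33.7 FPKM in PCdel libraries, a difference of -0.18 (SE 0.24, exact permutation p = 0.6). QC6 was the highest and QC3 the lowest library for Irf7, the libraries with high Y-linked transcripts.

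Of the sensors, Zbp1, which binds Z-form nucleic acid and can start necroptosis, stood apart from the others. It was at 23.9, 25.3 and 22.2 FPKM in ApcMin and at 34.2, 29.9 and 38.5 FPKM in PCdel libraries, means of 23.8 ± 1.59 (SD, n = 3) and 34.2 ± 4.30 FPKM (SD, n = 3). Every PCdel library was above every control, the difference was 0.50 (SE 0.12, exact permutation p = 0.1, limma adjusted p = 1.0), and over the 6 fits that each drop 1 library it was between 0.41 and 0.59. The cytoplasmic RNA helicases did not separate. Ifih1, the sensor of long double-stranded RNA, was at 12.6, 11.9 and 12.8 FPKM in ApcMin and 11.7, 15.8 and 15.8 FPKM in PCdel libraries (difference 0.19, SE 0.13). Ddx58, the sensor RIG-I, was at 9.38, 9.28 and 11.8 FPKM in ApcMin and 8.89, 9.83 and 11.4 FPKM in PCdel libraries, nearly the same range (difference -0.01, SE 0.14). Dhx58, a regulator of both, was at 3.10, 3.79 and 3.34 FPKM in ApcMin and 2.91, 3.28 and 2.91 FPKM in PCdel libraries, with overlap (difference -0.13, SE 0.11).

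The 8 further effectors and regulators had 0 members with an unadjusted limma p under 0.05, and their groups overlapped in 8 of 8. Usp18, the protease that removes Isg15 and dampens type I receptor signalling, had the largest standard error of the 36 tested members and was at 4.15, 6.49 and 16.4 FPKM in ApcMin and at 7.86, 8.41 and 7.76 FPKM in PCdel libraries. Its controls spanned the PCdel values on both sides, so that the difference of 0.04 (SE 0.41) became 0.54 without ApcMin library QC6 and -0.34 without QC4. Parp14, an ADP-ribosyltransferase, was at 10.9, 11.8 and 11.6 FPKM in ApcMin and 11.1, 14.6 and 15.8 FPKM in PCdel libraries, the largest difference of this group at 0.24 (SE 0.14, exact permutation p = 0.3).

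Ifi35 was at 37.1, 39.8 and 56.0 FPKM in ApcMin and 39.9, 35.9 and 57.5 FPKM in PCdel libraries, with QC6 and QC10 the highest of their genotypes. Bst2, which tethers enveloped virus particles to the cell, was at 26.3, 34.7 and 23.2 FPKM in ApcMin and 25.6, 30.8 and 30.0 FPKM in PCdel libraries, with no difference beyond the spread (0.05, SE 0.17). Ifi27 was at 24.2, 23.4 and 28.9 FPKM in ApcMin and 21.9, 30.1 and 25.6 FPKM in PCdel libraries, a difference of 0.01 (SE 0.15). In these genes the genotypes overlapped widely. Xaf1, a binding partner of the apoptosis inhibitor XIAP, was at 7.98, 7.86 and 7.85 FPKM in ApcMin and 7.07, 9.21 and 9.85 FPKM in PCdel libraries, narrow in the controls and spread on both sides of them in PCdel (difference 0.11, SE 0.13). The remaining genes were Ifi44 at 1.60 to 5.49 and Rsad2, the antiviral enzyme viperin, at 0.785 to 1.24 FPKM over the 6 libraries.

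Around the members, 115 further genes of the interferon pathway were followed, of which 83 were tested. At an unadjusted limma p under 0.05, 10 were higher and 1 lower in PCdel, where 2.70% of all genes tested were higher and 0.681% lower. After adjustment 0 passed, and the smallest adjusted p was 0.979. These shares, and those of 6.00% upwards and 1.54% downwards for groups that do not overlap, also apply to the lists below. In a list of 6 genes a count of 0 is near such a share. Of 21 interferon ligands, 17 were listed at 0 in all libraries, every Ifna gene among them. Ifng was at 0.0487, 0 and 0 FPKM in ApcMin and at 0.130, 0.0748 and 0.0959 FPKM in PCdel libraries, which did not overlap. These are traces near the lower end of the listed values, and 25.9% of the exonic bases of Ifng are shared with the gene model Gm49751. Ifnb1 was above 0 in QC4 alone, at 0.0793 FPKM. Ifne and Ifnz stayed at or below 0.129 FPKM.

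The interferon receptors were all expressed, and 0 of 6 had an unadjusted limma p under 0.05. Ifngr1 lay between 61.5 and 73.8 FPKM and Ifngr2 between 67.0 and 90.5 FPKM, Ifnar1 between 15.6 and 17.2, Ifnlr1 between 4.73 and 5.94 and Il10rb between 54.1 and 73.3 FPKM over the 6 libraries. Ifnar2 was the exception in size, at 18.8, 14.8 and 11.2 FPKM in ApcMin and 10.6, 11.8 and 7.80 FPKM in PCdel libraries, a difference of -0.51 (SE 0.22, exact permutation p = 0.2) with QC8 above QC6. Jak1, Jak2, Tyk2, Stat3 and Stat4 overlapped between genotypes, with differences from -0.01 to 0.26.

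Among the inhibitors, 0 of 6 had an unadjusted limma p under 0.05, though Ptpn2 and Pias1 did not overlap, at differences of 0.14 and 0.11. The induction genes gave 1 of 11 tested, Irf5, at 2.10, 2.03 and 3.41 FPKM in ApcMin and 4.30, 4.47 and 3.75 FPKM in PCdel libraries (difference 0.58). Of all 13 induction genes, 3 did not overlap, each higher in PCdel. They were Irf5, Irf8 (difference 0.20) and Tlr9 (0.23), which was below the filter. Of the 63 other interferon-stimulated genes, 54 were tested, and 8 were higher and 1 lower at an unadjusted limma p under 0.05. They include Cxcl9, a chemokine for T cells that interferon gamma induces, at 1.19, 1.57 and 2.25 FPKM in ApcMin and 4.39, 3.09 and 2.67 FPKM in PCdel libraries (difference 0.71, SE 0.20). Ciita, the activator of MHC class II genes, was at 2.27, 2.61 and 3.71 FPKM in ApcMin and 3.73, 3.96 and 5.64 FPKM in PCdel libraries (difference 0.49, SE 0.19).

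Immunity-related GTPases were also among these 8. Ifi47 was at 12.6, 14.7 and 15.3 FPKM in ApcMin and 18.7, 18.4 and 33.4 FPKM in PCdel libraries (difference 0.64, SE 0.23). Tgtp1 and Tgtp2 share 83.2% of the 31-base stretches of Tgtp1, and their sum was 3.84, 3.77 and 4.21 FPKM in ApcMin and 8.31, 6.03 and 7.18 FPKM in PCdel libraries. The others with an unadjusted limma p under 0.05 were Trim25 (difference 0.75), Ifitm1 (0.64) and Casp4 (0.58). Trex1, a DNA exonuclease, was the 1 that was lower (difference -0.97). It was at 6.43, 6.07 and 9.86 FPKM in ApcMin and 3.78, 2.92 and 3.08 FPKM in PCdel libraries. Of its 31-base stretches, 97.6% also occur in Atrip. The sum of Trex1 and Atrip was 7.29, 6.48 and 10.7 FPKM in ApcMin and 4.997, 3.41 and 4.46 FPKM in PCdel libraries. These sums did not overlap either.

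Markers of other cells in the tumour differed between libraries too. The macrophage and dendritic cell list had the higher mean in PCdel for 10 of 10 genes, with Adgre1, C1qb and C1qc among 8 tested at an unadjusted limma p under 0.05. It summed to 116.4, 116.0 and 129.8 FPKM in ApcMin and to 148.1, 165.3 and 143.1 FPKM in PCdel libraries, which did not overlap. Its order of PCdel libraries differed from that of the gamma style genes, QC8 being the highest here and the lowest there. As the median of log2 deviations, its level was -0.18, -0.12 and -0.004 in QC4, QC5 and QC6. By this measure the ApcMin libraries stood in the same order as for the gamma style genes. By summed FPKM, QC4 was above QC5 here and below it in the gamma style genes. The T cell and NK cell list, the usual source of interferon gamma, had 12 of 12 means of log2(FPKM + 1) higher, although the mean FPKM of Cd3g was lower, and 0 of 9 tested at that threshold, and it summed to 45.7, 84.2 and 173.5 FPKM in ApcMin and 130.3, 75.1 and 118.2 FPKM in PCdel libraries. Its level as the median of log2 deviations was -0.59, -0.15 and 0.37 in QC4, QC5 and QC6 and 0.14, -0.11 and 0.23 in QC3, QC8 and QC10. By this measure it ranked the libraries within each genotype in the same order as the gamma style genes. By summed FPKM the PCdel order differed, with QC3 above QC10 here and below it in the gamma style genes. Between genotypes the T cell and NK cell list overlapped, with the controls spanning a wider range than the PCdel libraries, and Ncr1, a defining NK cell marker, was listed at 0 in QC4, QC6 and QC8. Of the 5 plasmacytoid dendritic cell markers, Tcf4 did not overlap (difference 0.43) and the other 4 did. Tcf4 was at 9.68 to 15.6 FPKM and the other 4 at 0.192 to 3.39 FPKM. Its values thus stand apart from theirs and are not read as a level of these cells. The stromal genes Dcn and Pdgfra were higher in PCdel without overlap (differences 0.60 and 0.62), as was the neutrophil gene Retnlg (0.68), each at an unadjusted limma p under 0.05. The other 5 genes of the stroma and endothelium list overlapped, with differences from -0.01 to 0.44. So did the other 5 of the neutrophil list, with differences from 0.02 to 0.62. The 6 enterocyte genes had lower means in PCdel, with 0 of 6 at that threshold and the highest sum in QC6. The part of any of these cells in the levels of the gamma style genes was not tested.

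**Figure D5:**
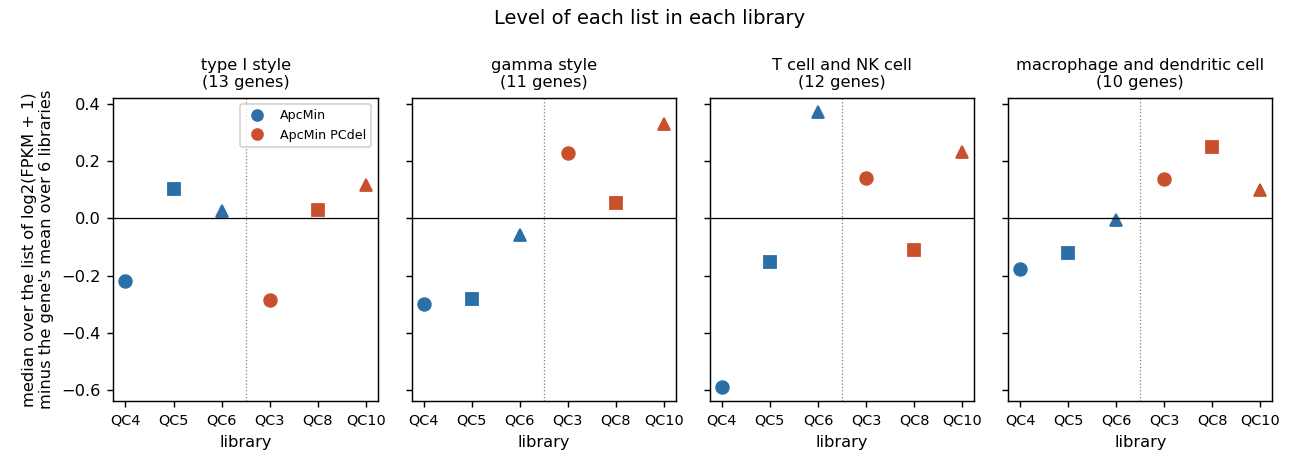
Level of the type I style genes, the gamma style genes and the marker lists of T and NK cells and of macrophages and dendritic cells in each library, as the median over the list of log2(FPKM + 1) minus the gene's mean (blue for ApcMin, red for ApcMin PCdel). The gamma style genes and the macrophage and dendritic cell markers have all 3 red points above all 3 blue ones, and the other lists overlap.

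Since Y-linked transcripts were high in 1 library of each genotype, the comparison was also made separately for those and for the rest. Between the libraries where they were low, 2 of each genotype and QC5 with the most at 1.52 FPKM, the gamma style genes were higher in PCdel for 11 of 11 members, with a median difference of 0.55. Between QC3 and QC6, where they were high, 9 of 11 were higher, with a median of 0.39. The type I style genes were higher in 9 of 13 members in the first of these comparisons, with a median difference of 0.23, and in 1 of 13 in the second, with a median of -0.20. The median of the gamma style genes was above 0 in both, and that of the type I style genes was not. The second comparison rests on 1 library of each genotype, so it has no measure of spread, and genes of the same libraries are not replicates. The transcription factors, the sensors and the other effectors and regulators had medians of 0.29, 0.25 and 0.23 in the first comparison. In the second they had -0.28, -0.14 and -0.12. Neither comparison was tested. Medians and shares over all genes were not taken for them, so these counts and medians have no background to be set against.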

How the data were processed

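The authors extracted RNA from adenomas stored in RNAlater, made libraries with the TruSeq RNA kit, sequenced them on a HiSeq2500, and named CLC Genomics Workbench 7 and a normalization in MatLab without settings. The program behind the deposited tables is not given in the sources used here. The authors deposited FPKM per gene and library, TPM, and the coverage of each gene, a signal that is not scaled. Coverage divided by FPKM gave the depth. Read counts were not derived, so no counting intervals or detection floors are given.

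Entries of 1 gene were summed. Genes with a mean of at least 1 FPKM were compared on log2(FPKM + 1), which understates changes of weak genes, with limma 3.58.1 in R 4.3.3 (lmFit, eBayes with trend), Benjamini-Hochberg adjustment and a threshold of 0.05. The exact permutation test was two-sided. The fit was tested on simulated data. The 40 members, their styles, the pathway list and the marker lists were chosen with earlier results of these data known. Members given for every library were, by role, the 3 highest and the 3 with the largest differences, and those with an unadjusted p under 0.05 or without overlap. Ifit1, Isg15, Gbp3 and Usp18 were added after their values were seen. Shared 31-base stretches and exon overlaps come from GENCODE M21 (GRCm38), whose positions equal those of 35 members in the tables. Promoter sequences are from RefSeq (GRCm38.p6). The alternatives tried were TPM, a pseudocount of 0.1, a minimum mean of 5 FPKM or none, quantile normalization, median centring, eBayes without trend, a Y-linked score as covariate, and each library left out. The values of 1 pathway gene are not reported here.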

Additional observations from a re-analysis of the deposited data

How the results depend on the processing

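Under each of the 14 alternatives, 0 members passed after adjustment. The number of all genes that passed was 2, and 1 without the filter or with median centring, and between 1 and 5 with each library left out, with 5 without QC4. The median difference of the gamma style genes was 0.47, and lay between 0.40 and 0.55 with each library left out and at 0.58 with a pseudocount of 0.1, 0.57 with TPM, 0.40 with quantile normalization and 0.42 with median centring. That of the type I style genes was 0.07, and lay between -0.04 and 0.20 with each library left out, being below 0 without QC4 and without QC10, and was 0.16 with a minimum mean of 5 FPKM, 0.12 with TPM, 0.01 with quantile normalization and 0.02 with median centring. That of all 40 members was 0.15, and between 0.09 and 0.25 with each library left out. The median over all genes tested, 0.04, moved as well. It was 0.10 with TPM, -0.001 with quantile normalization, -0.007 with median centring and 0.03 with a minimum mean of 5 FPKM. With each library left out it lay between -0.003 and 0.07. The counts at an unadjusted p under 0.05 were taken as a further result after seeing the data. For the gamma style it was 8, and 5 with a minimum mean of 5 FPKM, which tests only 6 of them, 5 with quantile normalization, and between 5 and 9 with each library left out, with 5 without QC4 and 5 without QC3, and the cause was not tested. For the type I style it was 0, and between 0 and 2 with each library left out, with 2 without QC3. No paired analysis was possible because the library numbers are not shared between the genotypes. With 3 libraries a group and no counts, differences as small as those of most members cannot be told from the spread.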

Other observations

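The gene Gvin1, a very large interferon-inducible GTPase, was at 2.31, 0.00167 and 3.05 FPKM in the ApcMin libraries QC4, QC5 and QC6 and at 3.04, 3.18 and 0.00163 FPKM in the PCdel libraries QC3, QC8 and QC10. It was thus near 0 in 1 library of each genotype. Of its 31-base stretches, 99.0% also occur in the gene model Gm4070, which was at 2.03, 2.20 and 2.38 FPKM in the ApcMin and 2.74, 2.91 and 2.16 FPKM in the PCdel libraries. This gene was singled out after its values were seen. Reads of Gvin1 and Gm4070 cannot be placed with certainty, so the values of Gvin1 are not compared with those of the gamma style genes.

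The most abundant interferon-stimulated genes outside the 40 members were Ifitm2, Ifitm3 and Ifi27l2b. Ifitm3, which blocks virus entry, was at 393.2, 370.0 and 252.2 FPKM in ApcMin and 461.1, 416.8 and 459.9 FPKM in PCdel libraries, without overlap (difference 0.42, SE 0.19, exact permutation p = 0.1). Ifi27l2b was at 431.9, 399.3 and 637.6 FPKM in ApcMin and 389.8, 386.4 and 500.1 FPKM in PCdel libraries, with overlap.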
